A study of Mus musculus with 17 samples.

Results

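Chemokine receptors were described in sorted mouse bone marrow progenitors and spleen myeloid cells, as 10 of the 45037 probe sets on the arrays, covering 5 of 17097 genes. The rule took every probe set annotated to exactly 1 of 6 symbols (Ccr1, Ccr2, Ccr3, Cxcr2, Cxcr4 and Cx3cr1). Ccr1 and Cx3cr1 had 2 probe sets each, Ccr2 had 4, and Ccr3 and Cxcr2 had 1 each. No probe set met the rule for Cxcr4, the receptor that holds progenitors in marrow, so it was not analysed here. A probe set is a group of short probes against 1 transcript, and each is named by its array number.

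Chemokine receptors are G protein-coupled receptors with which leukocytes follow gradients of secreted chemokines. Ccr2 binds Ccl2 and Ccl7 and is needed for the exit of classical monocytes from bone marrow, while Cx3cr1 binds Cx3cl1 and is high on patrolling monocytes, tissue macrophages and progenitors of the monocyte and dendritic lineages. Cxcr2 binds Cxcl1, Cxcl2 and other neutrophil attractants, Ccr1 binds Ccl3, Ccl5, Ccl6 and Ccl9 among others and is carried by neutrophils and monocytes, and Ccr3 is the eotaxin receptor of eosinophils. Irf8 is a transcription factor of the monocyte and dendritic lineages, and loss of Irf8 in mice leads to an excess of granulocytes.

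The 17 arrays fell into 6 groups. Myelo-dendritic progenitors (MDPs) were sorted from bone marrow as lineage-, Sca1-, CD127-, CD117+ and M-CSFR+ cells in 4 groups. These were 2 VENUS-negative pools, 3 VENUS-positive pools from reporter mice, 3 pools labelled Irf8 knockout and 3 wild-type pools. Both VENUS groups and the knockout-labelled group carry the genotype label IRF8-deficient, and no further allele, promoter or strain is given. From spleens of wild-type mice came 3 macrophage pools (CD11c-, CD11b+, M-CSFR+) and 3 granulocyte pools (CD11c-, CD11b+, Ly6C+, M-CSFR-). Mice were 6 to 10 weeks old, and each spleen, wild-type and knockout-labelled pool held cells of 5 mice, while the number was not given for the VENUS pools. Each array is 1 such pool, with levels in log2 units as normalized by the authors with RMA. Array medians lay between 4.33 and 4.48 and lower quartiles between 3.18 and 3.42, so levels below those marks are near background.

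The Irf8 level did not check the knockout label. It was 10.31 ± 0.12 in knockout-labelled MDPs and 10.34 ± 0.19 in wild-type MDPs (SD, n = 3 each), and the position of the probes relative to the disrupted part was not given. VENUS-negative MDPs had 5.87 ± 0.54 (n = 2) and VENUS-positive MDPs 10.88 ± 0.19 (n = 3). Csf1r, the gene of the M-CSF receptor in the MDP gate, was 4.96 in VENUS-negative MDPs against 7.35 to 7.89 in the other 3 MDP groups. In the spleen gates Csf1r averaged 9.80 in macrophages and 7.97 in granulocytes, although the granulocyte gate was negative for its product. Itgax, which encodes the CD11c used to discard cells, averaged 8.38 in macrophages and 7.78 in granulocytes, and 3.85 in wild-type MDPs. Wild-type MDP pool 3 stood apart from pools 1 and 2 on myeloid markers, with a mean level of 9.75 over 6 neutrophil markers against 4.89 and 4.31. For comparisons with wild-type MDPs, values of the called receptors without pool 3 are printed after those from all arrays. For the lists of other genes, mainly the counts of calls are printed without it, and single differences can shift. In sorted bulk pools, fewer cells of a type and less RNA per cell cannot be told apart.

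Ccr1 and Ccr2 were the members that differed most between knockout-labelled and wild-type MDPs, and both lie in a run of receptor genes on chromosome 9. Their promoter windows are shown here because both receptors rose in that comparison and only Ccr2 was called in the VENUS comparison. In the VENUS pools Ccr1 was under the arrays' lower quartiles, so a fall could not be seen. The windows are the RefSeq bases from 250 before to 50 after the gene start (GRCm38.p6, strand of the gene, 5′ to 3′), with a GAGGAA match in capitals. Ccr1 lies at chr9:123968643-123968942 on the minus strand and Ccr2 at chr9:124101933-124102232 on the plus strand.
Ccr1: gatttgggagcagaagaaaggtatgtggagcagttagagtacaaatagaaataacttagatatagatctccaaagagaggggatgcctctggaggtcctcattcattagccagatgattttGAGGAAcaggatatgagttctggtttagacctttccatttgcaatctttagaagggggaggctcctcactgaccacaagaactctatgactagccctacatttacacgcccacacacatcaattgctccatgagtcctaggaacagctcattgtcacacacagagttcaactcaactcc
Ccr2: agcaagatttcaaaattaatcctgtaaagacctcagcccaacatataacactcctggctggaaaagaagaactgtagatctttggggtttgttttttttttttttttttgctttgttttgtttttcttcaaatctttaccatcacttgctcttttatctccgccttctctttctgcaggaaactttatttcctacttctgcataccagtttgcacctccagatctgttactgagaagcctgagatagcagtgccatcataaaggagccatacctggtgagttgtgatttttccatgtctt

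On both strands of these windows, 4 motifs were searched: GAGGAA, a core that the myeloid factor PU.1 can bind, the joint ETS and IRF motif (GGAA, 2 bases of any kind, GAAA), the tandem IRF motif (GAAA, 2 bases of any kind, GAAA) and the C/EBP-type motif TTGCNNAA. The Ccr1 window held 1 GAGGAA match, at its base 122, and the Ccr2 window held no match to any of the 4. The Ccr3 window held 1 GAGGAA match, the Cxcr2 window 2 and the Cx3cr1 window none. No other motif matched in the 5 windows. Over 32851 promoter windows of the same length, 28.3% held GAGGAA, 2.72% the joint ETS and IRF motif, 3.44% the tandem IRF motif and 10.8% TTGCNNAA. These are matches of letters and not measured binding sites.

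Ccr1 was highest in spleen granulocytes and, among the progenitors, in knockout-labelled MDPs. On its brighter probe set, 1419609, the VENUS-negative pools had 2.78 and 2.89, and the VENUS-positive pools 2.80, 2.62 and 2.91. Knockout-labelled pools had 6.92, 6.61 and 6.61. Macrophage pools had 5.52, 5.64 and 3.94, granulocyte pools 9.12, 9.46 and 8.54, and wild-type MDP pools 2.37, 2.91 and 4.58. The 3 knockout-labelled pools were thus above all 8 other MDP pools, while the VENUS pools and wild-type pools 1 and 2 were under their arrays' lower quartile. Probe set 1419610 gave the same order of the upper 4 groups, with 6.05, 6.47 and 5.84 in knockout-labelled pools and 2.33, 2.17 and 3.58 in wild-type pools. Down that order, granulocytes, knockout-labelled MDPs and macrophages did not overlap on either probe set. Macrophages and wild-type MDPs overlapped on 1419609 and not on 1419610, and the 3 lowest groups overlapped on both.

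Ccr2 was high in macrophages and knockout-labelled MDPs, intermediate in VENUS-positive and wild-type MDPs, and low in granulocytes and VENUS-negative MDPs. On its brightest probe set, 1421187, the VENUS-negative pools had 3.52 and 3.79, and the VENUS-positive pools 7.51, 7.0 and 8.0. The knockout-labelled pools had 9.86, 9.99 and 10.08, and the macrophage pools 10.09, 10.28 and 10.00. Granulocyte pools had 4.23, 3.95 and 4.04, and wild-type MDP pools 7.51, 7.21 and 8.13. Knockout-labelled MDPs and macrophages overlapped on this probe set, but on the other 3 the macrophages were separate and higher, with means of 9.21 to 9.44 in macrophages and 7.06 to 8.27 in knockout-labelled MDPs. Wild-type and VENUS-positive MDPs overlapped on all 4 probe sets. The granulocyte pools and both VENUS-negative pools were under their arrays' medians on 3 of the 4, the exception being 1460067.

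Cx3cr1 set macrophages apart from every other group. On probe set 1450020 the VENUS-negative pools had 4.95 and 5.20, the VENUS-positive pools 7.52, 6.75 and 6.80, and the knockout-labelled pools 7.65, 6.78 and 6.03. Macrophage pools had 8.37, 8.87 and 8.89, granulocyte pools 5.25, 5.21 and 5.17, and wild-type MDP pools 6.02, 6.52 and 7.12. VENUS-positive, knockout-labelled and wild-type MDPs overlapped down that order, and so did granulocytes and VENUS-negative MDPs at the bottom, with no overlap between wild-type MDPs and granulocytes. The dimmer probe set 1450019 gave the same grouping, with knockout-labelled MDPs as the lowest of the 3 middle groups and separate from granulocytes, and with macrophages at 6.74, 8.06 and 8.18 and VENUS-negative MDPs at 4.22 and 4.51.

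Cxcr2 and Ccr3 were granulocyte receptors in these arrays. Cxcr2 had 10.91, 11.27 and 11.28 in granulocyte pools, and between 4.19 and 5.46 in every other pool, so only the granulocytes stood apart. Ccr3 had 4.72, 6.71 and 6.86 in granulocyte pools. Its other levels lay between 3.22 and 4.06 except in wild-type MDP pool 3, which had 4.98 and so lay above granulocyte pool 1. Outside granulocytes only that wild-type pool passed its array's median for Ccr3, and the 5 other groups overlapped with their neighbours in the order.

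**Figure D1:**
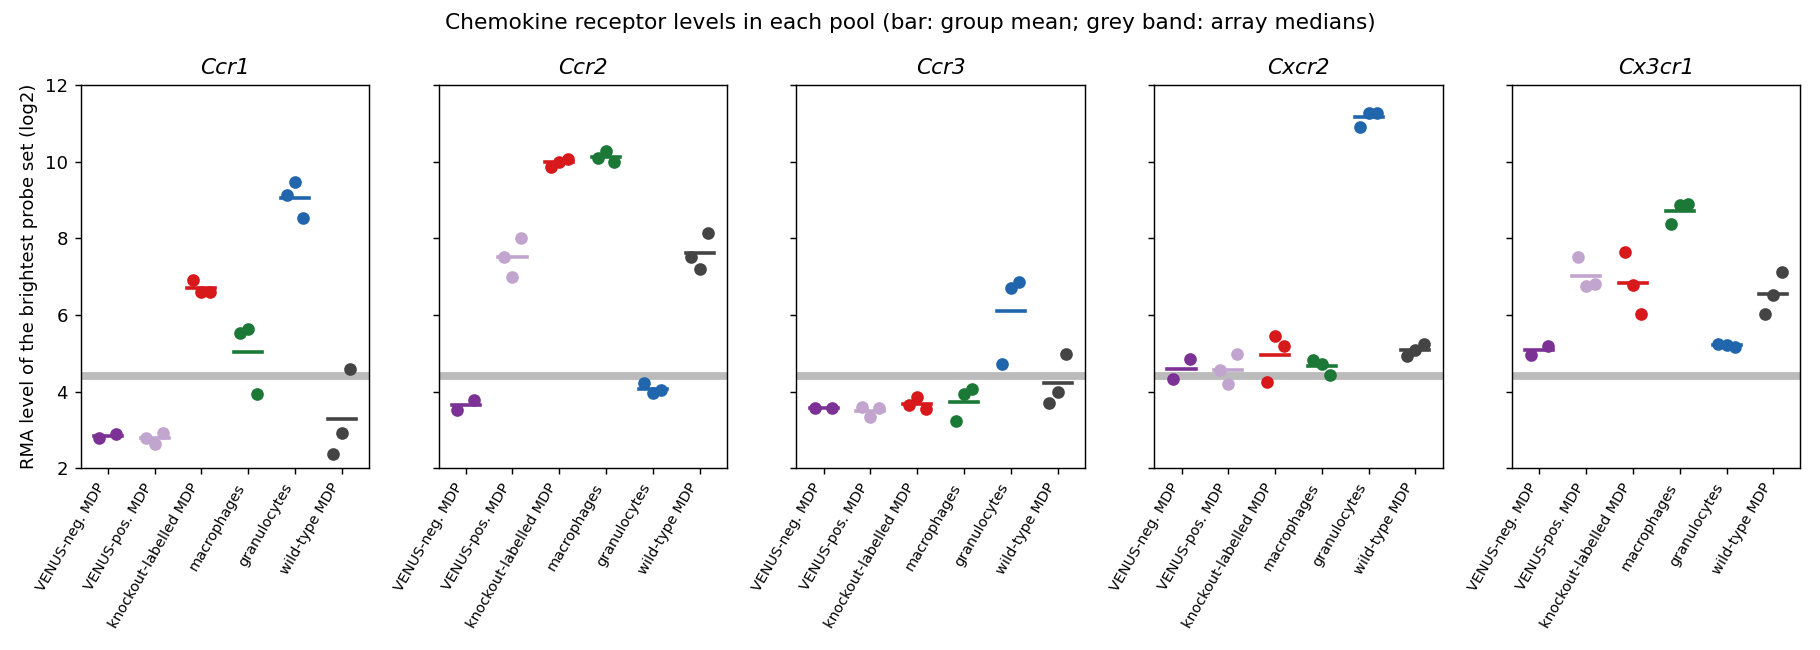
RMA level (log2, vertical axis) of the brightest probe set of each receptor in every pool (points), with a bar at each group mean and a grey band over the range of array medians, 4.33 to 4.48. Cxcr2 is near 11 in the 3 granulocyte pools only, Ccr2 is near 10 in macrophage and knockout-labelled pools, and Ccr1 reaches 6.61 or more only in knockout-labelled MDPs and granulocytes.

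**Figure D2:**
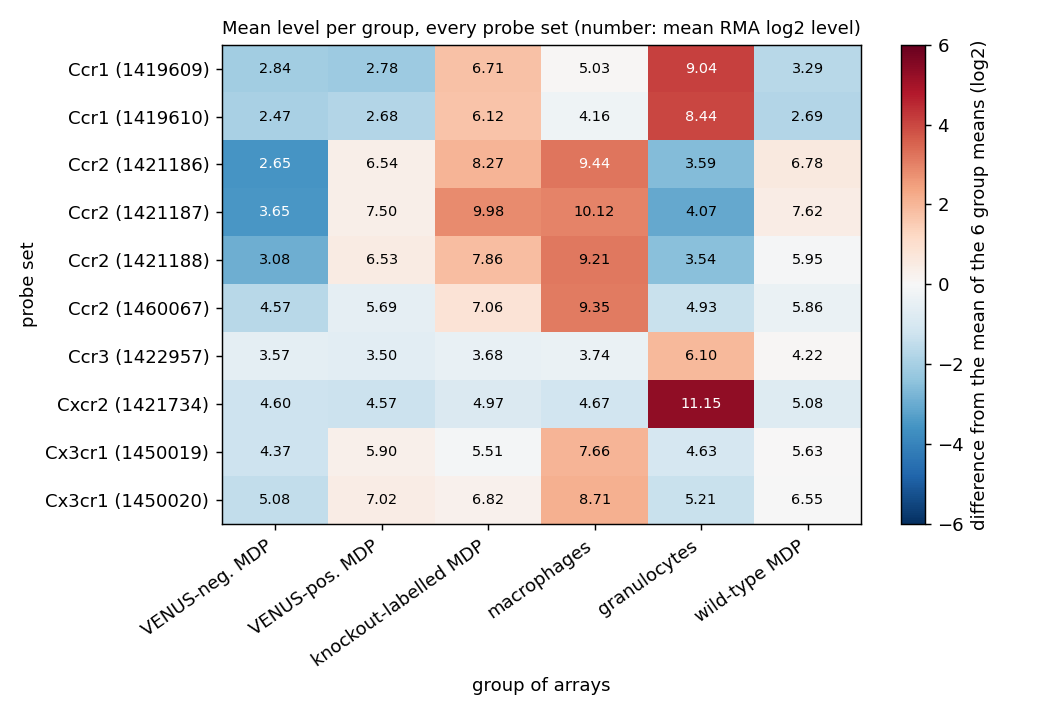
Mean level per group for all 10 probe sets (rows), printed as RMA log2 values in each cell, over 6 groups of arrays (columns), coloured by the difference from the mean of the row's 6 group means. The 4 Ccr2 rows are highest in macrophages, both Ccr1 rows and the Ccr3 and Cxcr2 rows in granulocytes.

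The first comparison asked how the receptors differ between Irf8 knockout-labelled and wild-type MDPs. Ccr1 and Ccr2 rose, and no receptor fell. Of the 10 probe sets, 4 rose and 0 fell past an adjusted p of 0.05 (limma, Benjamini-Hochberg over all 45037 probe sets), against 0.575% of all probe sets called in either direction, 0.266% called higher and 0.309% called lower. Their median difference was 1.34, against 0.01 over all probe sets. Both probe sets of Ccr1 were higher by 3.43, with standard errors of 0.50 and 0.33 and adjusted p = 0.00443 and 0.000185 (1419609 and 1419610, limma). Since wild-type MDPs averaged 3.29 and 2.69, under the array medians, no fold is given for Ccr1.

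Ccr2 was 5.14-fold higher in knockout-labelled MDPs on probe set 1421187, a difference of 2.36 ± 0.24 (SE; limma adjusted p = 0.000293). The second called probe set, 1421186, had 8.56, 8.27 and 7.98 in knockout-labelled pools, against 6.80, 6.22 and 7.33 in wild-type pools. Its difference was 1.49 ± 0.29 (SE; limma adjusted p = 0.0332). The other 2 were not called, although 1421188 had 7.67, 8.26 and 7.66 in knockout-labelled pools against 6.07, 4.77 and 7.0 in wild-type pools, a difference of 1.91 (limma adjusted p = 0.061). Probe set 1460067 had 6.71, 7.41 and 7.04 in knockout-labelled pools against 4.92, 5.78 and 6.88 in wild-type pools, a difference of 1.20 (limma adjusted p = 0.233). The groups did not overlap on 5 of the 10 probe sets, against 13.6% of all probe sets.

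Ccr3, Cxcr2 and Cx3cr1 were not called between these groups. Cxcr2 had 4.25, 5.46 and 5.18 in knockout-labelled pools against 4.93, 5.09 and 5.23 in wild-type pools, a difference of -0.11 with a 95% interval of -0.71 to 0.48. The Ccr3 difference was -0.54 (95% interval -1.52 to 0.45), at levels near or under the array medians. For Cx3cr1 the differences were -0.12 (95% interval -0.88 to 0.63) and 0.26 (95% interval -0.50 to 1.03).

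Wild-type pool 3, singled out by its marker levels in these data, was the highest wild-type pool on all 6 Ccr1 and Ccr2 probe sets. Leaving it out could thus only raise these differences. Without it, they grew to 4.07 and 3.87 for Ccr1 and to 1.70 to 2.62 for the 4 Ccr2 probe sets. All 6 were then called, 1421188 at limma adjusted p = 0.00533 and 1460067 at 0.00838, against 0.617% of all probe sets. The call of 1421186 was lost without wild-type pool 1 or 2 or without knockout-labelled pool 1 or 2, at limma adjusted p = 0.112 to 0.122. In a fit of these 6 arrays alone, the differences were the same and only Ccr2 1421187 was called, with limma adjusted p = 0.118 and 0.0643 for Ccr1.

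Markers of other blood cells differed between these MDP pools too. The mean level of the 6 neutrophil markers was 7.76, 6.64 and 7.56 in knockout-labelled pools, against 4.89, 4.31 and 9.75 in wild-type pools. Of the 6, 1 was called higher in knockout-labelled MDPs, Mmp8, and 0 lower, against 0.784% of all genes called. Without wild-type pool 3, 3 of the 6 were called higher and 0 lower, against 0.819% of all genes. These were S100a8 by 4.04, S100a9 by 3.34 and Mmp8 by 4.53 (limma adjusted p = 0.0182, 0.0349 and 0.000141). Mmp8 had 8.81, 8.51 and 8.41 in knockout-labelled pools, against 4.41, 3.69 and 5.56 in wild-type pools. On the other 5 markers wild-type pool 3 exceeded every knockout-labelled pool. Its Ccr1 level, 4.58, was under the lowest knockout-labelled one, 6.61, as was its Mmp8 level. Over 4 classical monocyte markers the means were 7.50, 6.94 and 7.51 in knockout-labelled pools, against 6.11, 6.78 and 9.43 in wild-type pools. Of these 4, 0 were called. Wild-type pool 3 was the highest of these 6 pools on 3 of them. The exception was F13a1, at 10.55 in that pool, and 10.87, 10.97 and 10.81 in knockout-labelled pools. On Ccr2 1421187 wild-type pool 3 had 8.13, under the lowest knockout-labelled level, 9.86. On Ccr2 1460067 it had 6.88, above the lowest knockout-labelled level, 6.71. Erythroid and megakaryocyte markers had means of 4.02, 4.27 and 4.13 in knockout-labelled pools, against 6.10, 6.81 and 9.28 in wild-type pools, and 3 of 6 were called lower. Of the lymphoid lists, 1 of 3 B cell markers was called, Vpreb1, with 7.66, 6.25 and 7.35 in knockout-labelled pools against 4.61, 4.36 and 4.91 in wild-type pools. Of 3 T cell markers, Cd28 was called, at 4.63, 5.61 and 5.16 in knockout-labelled pools against 3.35, 3.91 and 4.01 in wild-type pools. No marker was called in the eosinophil, basophil and mast cell, NK cell, non-classical monocyte and dendritic cell lists. Without wild-type pool 3, every list but the neutrophil one kept the same calls. Wild-type pool 3 is 1 pool. It was also the highest of the 6 pools in the mean of the eosinophil markers, 7.30, and of the basophil and mast cell markers, 7.05. Its high marker means were thus not limited to the neutrophil and monocyte lists. The part of other blood cells in the Ccr1 and Ccr2 differences was not tested.

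**Figure D3:**
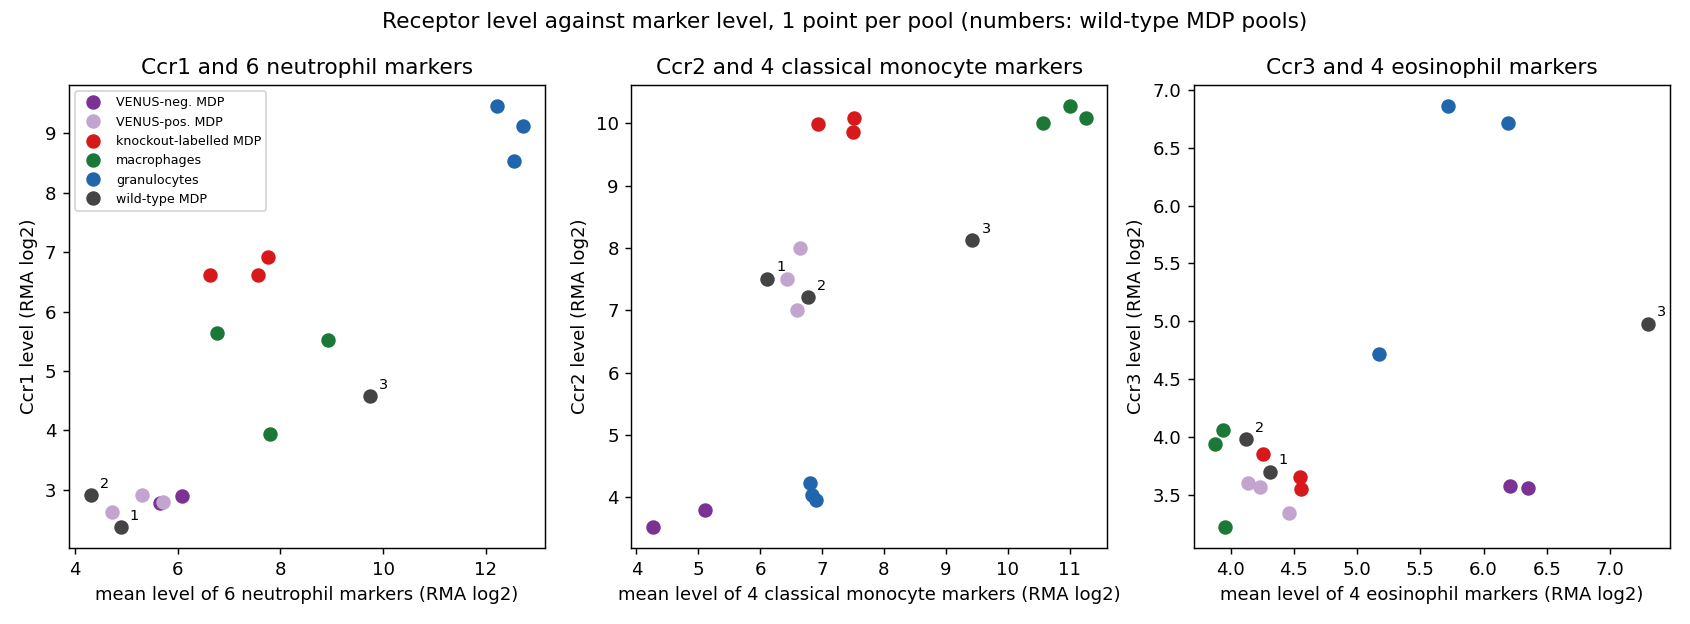
Level of Ccr1, Ccr2 or Ccr3 (vertical axis, RMA log2) against the mean level of 6 neutrophil, 4 classical monocyte or 4 eosinophil markers (horizontal axis, RMA log2), 1 point per pool, coloured by group and with the wild-type MDP pools numbered. Wild-type pool 3 lies to the right of all 3 knockout-labelled pools for the mean of the neutrophil and of the monocyte markers, and below them in Ccr1 and Ccr2. It lies to the right of them for the eosinophil markers as well, but above them in Ccr3.

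The second comparison set VENUS-negative against VENUS-positive MDPs. Ccr2 and Cx3cr1 fell, and Ccr1, Ccr3 and Cxcr2 were not called. Of the 10 probe sets, 5 fell and 0 rose, against 4.44% of all probe sets called in either direction, 2.24% called lower and 2.2% called higher. The median difference over the 10 was -1.33, against -0.01 over all probe sets.

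Ccr2 was lower by 3.45 to 3.89 in VENUS-negative MDPs on its 3 called probe sets. For 1421187 the difference was -3.85 ± 0.27 (SE; limma adjusted p = 1.24e-06). VENUS-negative pools had 2.72 and 2.58 on 1421186, against 6.13, 6.88 and 6.61 in VENUS-positive pools. The fourth probe set, 1460067, had 4.43 and 4.71 in VENUS-negative pools against 5.73, 5.56 and 5.78 in VENUS-positive pools, and its difference of -1.12 was not called (limma adjusted p = 0.158). The VENUS-negative levels are close to background on the first 3, so these differences are not given as folds.

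Cx3cr1 was 3.85-fold lower in VENUS-negative MDPs on probe set 1450020, a difference of -1.94 ± 0.40 (SE; limma adjusted p = 0.0106). On 1450019 the VENUS-negative pools had 4.22 and 4.51 against 5.48, 6.21 and 5.99 in VENUS-positive MDPs, a difference of -1.53 (limma adjusted p = 0.0402). The 3 Ccr2 calls held without any 1 of the 5 VENUS pools, and the Cx3cr1 calls did not. That of 1450020 was lost without VENUS-negative pool 1 (limma adjusted p = 0.0874), and that of 1450019 without either VENUS-negative pool or without VENUS-positive pool 2 or 3 (limma adjusted p = 0.0931 to 0.215). In a fit of the 5 VENUS arrays alone, both were lost, at limma adjusted p = 0.0539 and 0.0784, and Ccr2 kept its 3 calls.

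The uncalled receptors were near background in both groups for Ccr1 and Ccr3. Ccr1 differed by 0.06 (95% interval -1.13 to 1.25) and -0.21 (95% interval -1.01 to 0.58), and Ccr3 by 0.07 (95% interval -1.04 to 1.17). Cxcr2 had 4.33 and 4.86 in VENUS-negative pools against 4.55, 4.19 and 4.98 in VENUS-positive pools, and differed by 0.03 (95% interval -0.64 to 0.69). Pools of the 2 groups did not overlap on 6 of the 10 probe sets, against 27.7% of all probe sets.

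Markers of other lineages moved with this comparison, in which 5.4% of all genes were called. The mean of 6 erythroid and megakaryocyte markers was 10.42 and 9.60 in VENUS-negative pools, against 6.31, 5.85 and 6.50 in VENUS-positive pools, and 4 of the 6 were called higher. Over 5 basophil and mast cell markers it was 7.52 and 7.61 in VENUS-negative pools, against 3.93, 3.93 and 4.20 in VENUS-positive pools, with 3 of 5 called higher. The 4 eosinophil markers averaged 6.35 and 6.21 in VENUS-negative pools, against 4.14, 4.46 and 4.23 in VENUS-positive pools, with 1 of 4 called higher. Ccr3, the receptor of eosinophils, was 3.56 and 3.58 in VENUS-negative pools, against 3.60, 3.34 and 3.57 in VENUS-positive pools. Single markers of the classical monocyte, dendritic cell and NK cell lists fell. F13a1, 1 of 4 classical monocyte markers called, had 4.26 and 4.63 in VENUS-negative pools, against 10.09, 10.65 and 10.45 in VENUS-positive pools. Flt3, a cytokine receptor of dendritic progenitors and 1 of 3 dendritic cell markers called, had 5.33 and 5.15 in VENUS-negative pools against 8.17, 8.49 and 9.46 in VENUS-positive pools. Klrk1, 1 of 6 NK cell markers called, averaged 3.40 in VENUS-negative MDPs and 5.34 in VENUS-positive MDPs. Neutrophil, non-classical monocyte, B cell and T cell markers had 0 calls. Together with the low Csf1r level above, these values lie beside the Ccr2 and Cx3cr1 differences, and their part in them was not tested.

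**Figure D4:**
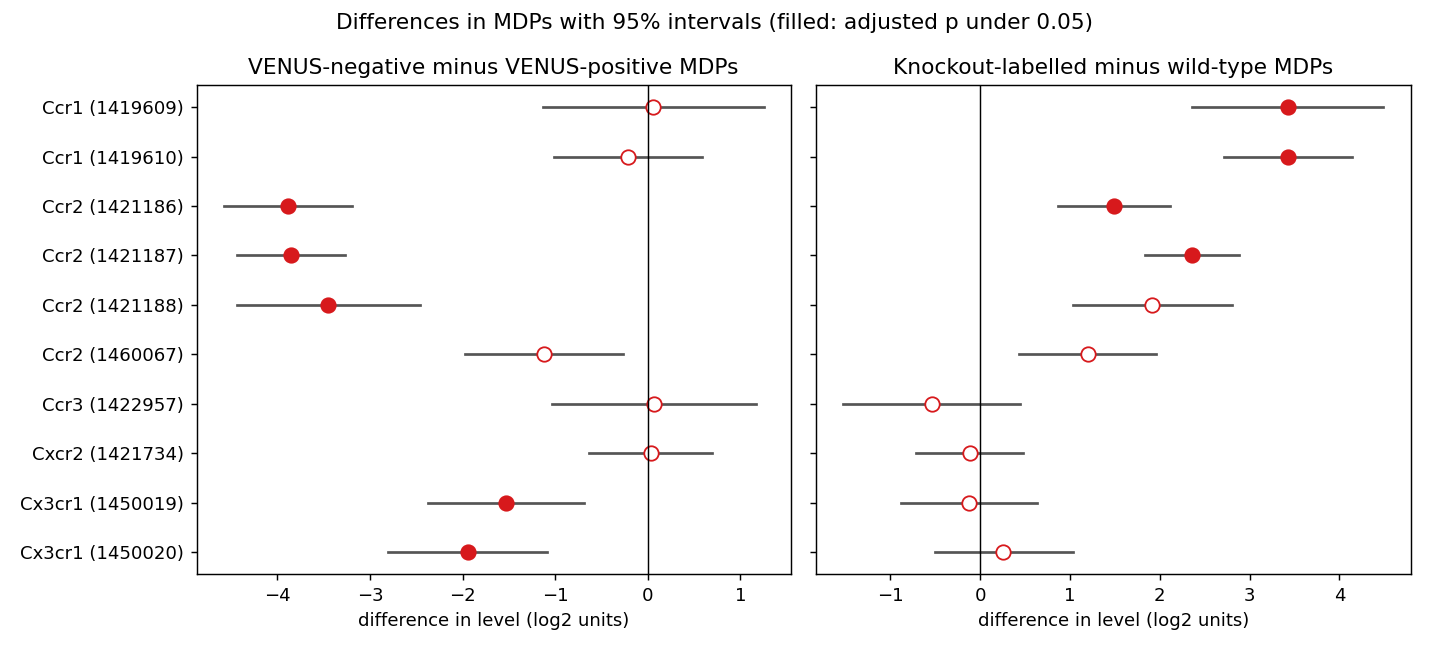
Difference in level (log2 units, horizontal axis) for each of the 10 probe sets in VENUS-negative minus VENUS-positive MDPs (left) and knockout-labelled minus wild-type MDPs (right), with 95% intervals from limma and filled points for adjusted p under 0.05. Ccr2 is negative on the left and positive on the right, and Ccr1 is near 0 on the left and 3.43 on the right.

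The VENUS and knockout comparisons share no arrays, and the difference between them was tested directly in the same fit. VENUS-negative minus VENUS-positive, less knockout-labelled minus wild-type, was negative and called for 7 of the 10 probe sets, against 2.35% of all probe sets in either direction (1.13% lower and 1.22% higher). Ccr2 gave -5.36 to -6.21 on 3 probe sets and -2.32 on 1460067 (limma adjusted p = 5.98e-07 for 1421187 and 0.0344 for 1460067). For Ccr1 it was -3.36 and -3.64 (limma adjusted p = 0.0276 and 0.000871). All VENUS pools were under their arrays' lower quartiles for Ccr1, so its values come mostly from the knockout comparison. Cx3cr1 was called on 1450020, at -2.21 (limma adjusted p = 0.045), and not on 1450019, at -1.41 (limma adjusted p = 0.273). Ccr3, at 0.60 (95% interval -0.88 to 2.08), and Cxcr2, at 0.14 (95% interval -0.75 to 1.04), were not called.

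Of these 7, Ccr2 1421186, 1421187 and 1421188 and Ccr1 1419610 kept their calls without any 1 of the 11 pools. Ccr1 1419609 lost its call without any 1 of 8 pools, with the exceptions of VENUS-positive pool 2, knockout-labelled pool 3 and wild-type pool 3 (limma adjusted p = 0.0534 to 0.0882). Ccr2 1460067 kept it only without knockout-labelled pool 1 or without wild-type pool 1 or 3, and otherwise had limma adjusted p = 0.0527 to 0.123. Cx3cr1 1450020 kept it only without knockout-labelled pool 3 or wild-type pool 3, and otherwise had limma adjusted p = 0.0531 to 0.146. In a fit of the 11 MDP arrays alone these last 2 calls were lost, at limma adjusted p = 0.13 and 0.161. Without wild-type pool 3 the 7 values were -4.01 and -4.08 for Ccr1, -5.65, -6.47, -5.89 and -2.83 for Ccr2 (1421186, 1421187, 1421188 and 1460067) and -2.49 for Cx3cr1 1450020, all called, against 2.18% of all probe sets.

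No receptor was called between VENUS-positive and wild-type MDPs. Of the 10 probe sets 0 were called, as were 0% of all 45037, and at an unadjusted p under 0.05 the counts were 0 of the 10 and 2661 of all. Pools did not overlap on 1 of the 10, Ccr3, against 9.7% of all probe sets. A limma fit with a trended and robust prior called 2 probe sets in all and 0 receptors. Ccr2 1421187 differed by -0.12 (95% interval -0.64 to 0.40), Cx3cr1 1450020 by 0.47 (95% interval -0.29 to 1.23) and Cxcr2 by -0.51 (95% interval -1.10 to 0.09). The intervals allow differences of about 1 log2 unit for several of them, for example up to 1.47 for Ccr2 1421188, which differed by 0.58. Without wild-type pool 3 that value was 1.11 (limma adjusted p = 0.589).

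In spleen, macrophages and granulocytes carried different receptor transcripts. All 10 probe sets were called, 6 higher and 4 lower in macrophages, against 24.9% of all probe sets (13.6% higher and 11.3% lower). Ccr2 was higher by 4.42 to 6.05 in macrophages and Cx3cr1 by 3.03 and 3.50, the second being 11.3-fold (limma adjusted p = 5.47e-06). Cxcr2 was 89.6-fold lower in macrophages, a difference of -6.49 ± 0.28 (SE; limma adjusted p = 1.7e-09). Macrophage pools had 4.83, 4.73 and 4.44, little above the array medians, so the size of this fold depends on levels close to background. Ccr1 was lower by 4.01 and 4.28 on its 2 probe sets, with 1 and 2 macrophage pools under their arrays' medians (limma adjusted p = 3.35e-05 for 1419609). Ccr3 differed by -2.35 (limma adjusted p = 0.00162), with macrophages at 3.22, 3.94 and 4.06, under the array medians. No pool of 1 type overlapped with the other on any of the 10, against 44.5% of all probe sets, and all 10 calls held without any 1 of the 6 pools.

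The granulocyte pools differed among themselves in Ccr3 and in eosinophil markers. Siglecf, a surface lectin of eosinophils, was 7.17, 8.42 and 8.49 in granulocyte pools 1, 2 and 3, beside Ccr3 levels of 4.72, 6.71 and 6.86. Il5ra, the interleukin 5 receptor subunit, was 4.16, 5.21 and 5.05. Granule genes of eosinophils were low beside wild-type MDP pool 3, with Epx at 4.28, 4.66 and 4.51 in granulocytes against 8.71 in that pool, and Prg2 at 5.09, 6.46 and 4.82 in granulocytes against 10.26. Over the 4 markers the granulocyte means were 5.17, 6.19 and 5.72. The part of eosinophils in the Ccr3 level was not tested. Markers of NK cells were higher in these pools as well, with means over 6 genes of 6.55, 6.63 and 7.25 in granulocytes, against 4.15, 4.21 and 5.33 in wild-type MDPs. In macrophages the same mean was 4.77, 4.92 and 5.24.

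Against wild-type MDPs, granulocytes had more Cxcr2, Ccr1 and Ccr3 and less Ccr2 and Cx3cr1. This gave 4 probe sets higher and 5 lower, against 38.4% of all probe sets (20.4% higher and 17.9% lower), and 8 of the 10 without overlap of pools, against 48.8%. Cxcr2 was 67.4-fold higher, a difference of 6.07 ± 0.28 (SE; limma adjusted p = 1.47e-09), with wild-type pools at 4.93 to 5.23, little above the array medians. Ccr1 was higher by 5.75 on both probe sets and Ccr3 by 1.88 (limma adjusted p = 0.00498). Ccr2 was lower by 2.41 to 3.54 on 3 probe sets, and 1460067 was not called at -0.93 (limma adjusted p = 0.0516). Cx3cr1 was 2.54-fold lower on 1450020 (limma adjusted p = 0.00818), and lower by 1.01 on 1450019, where 1 granulocyte pool was under its array's median (limma adjusted p = 0.0353). Without wild-type pool 3, the Ccr1 differences were 6.40 and 6.19, that of Ccr3 was 2.26 and that of Cxcr2 6.15. Ccr2 differed by -1.89 to -3.29 on its 3 called probe sets and by -0.42 on 1460067 (limma adjusted p = 0.25). Cx3cr1 1450020 differed by -1.06 (limma adjusted p = 0.0447), and 1450019 was not called (limma adjusted p = 0.0896). The call of 1450019 was also lost without wild-type pool 1 or 2 or granulocyte pool 1 or 3 (limma adjusted p = 0.0597 to 0.125), and without wild-type pool 1 Ccr2 1460067 was called (limma adjusted p = 0.00223). In a fit of the 6 arrays alone Ccr3 was not called (limma adjusted p = 0.0597).

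Macrophages had more Ccr2, Cx3cr1 and Ccr1 than wild-type MDPs. This made 8 of the 10 probe sets higher and 0 lower, against 18.9% of all probe sets (9.61% higher and 9.28% lower), and pools did not overlap on 8 of the 10, against 39.8%. Ccr2 was higher by 2.51 to 3.49, which is 5.68-fold to 11.2-fold. Cx3cr1 was 4.07-fold and 4.46-fold higher (limma adjusted p = 0.000752 and 0.000506). Ccr1 was higher by 1.75 and 1.46 (limma adjusted p = 0.0219 and 0.00543). The call of 1419609 was lost without macrophage pool 1 or 2 or wild-type pool 1 or 2 (limma adjusted p = 0.082 to 0.113), and also in a fit of these 6 arrays alone (limma adjusted p = 0.107). Without wild-type pool 3 the differences were 2.39 and 1.91 for Ccr1, 2.76 to 4.0 for Ccr2, and 2.07 and 2.44 for Cx3cr1, with the same 8 called. Cxcr2, at -0.41 (95% interval -1.01 to 0.18), and Ccr3, at -0.48 (95% interval -1.47 to 0.51), were not called. The granulocyte, macrophage, knockout-labelled and VENUS-positive comparisons with wild-type MDPs share the same 3 wild-type arrays.

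The receptor genes of chromosome 9 did not all move as neighbours. In RefSeq order, Ccr9, Fyco1, Cxcr6, Xcr1, Ccr1, Ccr1l1, Ccr3 and Ccr2 lie next to each other, a stretch of 8 genes chosen after the values were seen. In knockout-labelled minus wild-type MDPs 2 of the 8 were called, Ccr1 and Ccr2, which are separated by Ccr1l1 and Ccr3, against 0.784% of all genes. Ccr1l1 differed by 0.11 (95% interval -0.16 to 0.37) and Ccr3 by -0.54, both with wild-type levels under the array medians. Among the others Cxcr6 differed by -0.12, Xcr1 by 0.22, Ccr9 by 0.19 and Fyco1, an autophagosome transport gene, by 0.10. In VENUS-negative minus VENUS-positive MDPs 1 of the 8 was called, Ccr2, against 5.4% of all genes.

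The genes whose centred profiles over the 17 arrays were nearest to each receptor differed between receptors. Nearness is the mean absolute log2 difference over 17096 other genes, and this is a description without a test. Nearest to Ccr1 were Siglece, an inhibitory lectin of myeloid cells, at 0.555, the neutrophil collagenase gene Mmp8 at 0.701 and the receptor gene Trem3 at 0.747, against a median of 2.09 over all genes. Siglece averaged 8.56 in knockout-labelled MDPs and 5.31 in wild-type MDPs. Nearest to Ccr2 were Abca9 at 0.785, Ms4a6b at 0.874 and Ms4a6c at 0.885, with a median of 2.13. Abca9, a lipid transporter family gene, averaged 8.57 in knockout-labelled MDPs and 6.63 in wild-type MDPs, whereas Ms4a6b averaged 9.54 in knockout-labelled MDPs and 9.94 in wild-type MDPs.

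Cxcr2 had the neighbours Nlrp12 at 0.314, Chil1 at 0.352 and Ceacam10 at 0.362, all of them granulocyte-high, with 9.95, 10.42 and 8.64 in that group. For Ccr3 they were Map3k7cl at 0.282, Sema7a at 0.307 and Grin3a at 0.347, with a median of 0.792. For Cx3cr1 they were Ccdc102a at 0.339, Lpxn at 0.350 and Cd180, a Toll-like receptor homologue, at 0.366, all highest in macrophages, at 7.65, 6.67 and 7.68. Between the members themselves the nearest pair was Ccr3 and Cxcr2 at 1.17, then Ccr2 and Cx3cr1 at 1.30, and the farthest was Ccr2 and Cxcr2 at 3.58. Profiles were centred and not scaled, so a flatter profile lies nearer to most genes. The distance of 1.17 was above the median over all genes for Ccr3, 0.792, and below that for Cxcr2, 1.83. Likewise 1.30 was above the median for Cx3cr1, 1.1, and below that for Ccr2, 2.13. These pairs are therefore not close in profile for both members.

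Other genes of the chemokine system were mostly not called in knockout-labelled MDPs. Each gene is represented by its brightest probe set, and 0.784% of all genes were called in knockout-labelled minus wild-type MDPs. Of 15 other chemokine receptors 0 were called, of 36 chemokine ligands 1 and of 33 genes of receptor signalling 0. The ligand was Ccl2, the main ligand of Ccr2, which averaged 4.72 in knockout-labelled MDPs, against 3.74 in wild-type MDPs, a difference of 0.98 ± 0.20 (SE; limma adjusted p = 0.039). Leaving out wild-type pool 3 made it 0.92 and not called (limma adjusted p = 0.116), which left 0 calls in the 3 lists. Among the other receptors the largest difference was 1.01 for Ccrl2, an atypical receptor that binds chemerin, which was not called. The mean level over these 15 receptors was 3.76 to 3.82 in knockout-labelled pools and 3.61 to 3.77 in wild-type pools. That is under the array medians, so a fall could be missed.

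In VENUS-negative minus VENUS-positive MDPs, 5.4% of all genes were called. Of the 15 other receptors 0 were called. Their mean level was 3.75 to 3.84 in VENUS-negative pools and 3.61 to 3.67 in VENUS-positive pools, again under the array medians. Of 36 ligands 1 was called, Pf4, a platelet chemokine, at 10.42 in VENUS-negative and 2.77 in VENUS-positive MDPs (limma adjusted p = 0.000267). In the signalling list 2 of 33 rose and 8 fell, with a list median of -0.31 against -0.01 over all genes. Rgs1, which shortens G protein signals, rose by 3.87, and Plcb2, a phospholipase, rose by 0.75. Those that fell most were Pik3r6, a subunit of PI3K gamma, by 1.77, Gng2, a G protein gamma subunit, by 1.64, and Rgs2 by 1.14. Gnai2, the G protein through which chemokine receptors signal, fell by 0.72 (limma adjusted p = 0.00316), and Vav1, Prex1, Rac2 and Elmo1, which act on the cytoskeleton, fell by 0.97, 0.86, 0.85 and 0.81.

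Between macrophages and granulocytes, where 29.6% of all genes were called, 3 of 15 other receptors, 12 of 36 ligands and 12 of 33 signalling genes were called. Cmklr1, the chemerin receptor, was higher in macrophages by 3.08, and Cxcr3, the receptor for Cxcl9 and Cxcl10, differed by -1.36. Ccr8 differed by -0.50 at levels under the array medians. Of the ligands 5 were higher in macrophages and 7 lower. Ccl9, a Ccr1 ligand, averaged 11.41 in macrophages and 7.36 in granulocytes. Ccl5, another Ccr1 ligand, averaged 6.08 in macrophages and 9.96 in granulocytes, and Cxcl2, a Cxcr2 ligand, 2.42 in macrophages and 5.57 in granulocytes. Cxcl10 was higher by 1.83. Among signalling genes 3 were higher and 9 lower in macrophages, led by Rac2 at -1.66, Arrb2 at -1.54, Rgs3 at -1.36 and Plcb3 at 1.23.

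Against wild-type MDPs, 43.8% of all genes were called in granulocytes and 22.4% in macrophages. Signalling genes were higher in 21 of 33 in granulocytes with 0 lower, and in 18 with 1 lower in macrophages, with list medians of 0.95 and 0.68 against 0.10 and 0 over all genes. Fgr, a Src family kinase, was higher by 6.70 in granulocytes and 6.23 in macrophages, and Pik3r5, a PI3K gamma subunit, by 3.12 and 2.81. Without wild-type pool 3 these values were 7.69 and 7.22 for Fgr and 3.39 and 3.07 for Pik3r5. In granulocytes Arrb2, a beta-arrestin, followed with 3.07 and Rgs3 with 2.97. In macrophages Pik3r6 was higher by 2.25 and Rgs2 by 1.82.

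For the other receptors the counts were 5 of 15 in granulocytes and 1 of 15 in macrophages, all higher. Granulocytes were higher in Cxcr3 by 1.56, Ccrl2 by 1.53, Ccr9 by 0.69 and Ccr6 by 0.55, and macrophages in Cmklr1 by 3.31. Of 36 ligands, 10 were higher and 4 lower in granulocytes, and 4 higher and 3 lower in macrophages. Mif, a cytokine that also binds Cxcr2, averaged 6.46 in granulocytes and 7.31 in macrophages, against 10.62 in wild-type MDPs. Ccl6, a Ccr1 ligand, was higher by 3.70 in granulocytes and 3.14 in macrophages. Ccl5 was higher by 4.09 and Ccl9 lower, at -2.99, in granulocytes, and in macrophages Ccl3, which binds Ccr1, differed by -2.51 and Pf4 by -2.88. Pf4 had 2.82, 5.46 and 8.40 in the wild-type pools, and without pool 3 its difference was -1.46 and not called (limma adjusted p = 0.0638). VENUS-positive and wild-type MDPs had 0 called genes in each of the 3 lists, as over all genes (0%). When wild-type pool 3 was left out, granulocytes had 2 of 15 other receptors higher, 8 of 36 ligands higher and 3 lower, and 21 of 33 signalling genes higher, against 37.2% of all genes called. The calls of Ccr9 and Ccr6 were lost, at limma adjusted p = 0.166 and 0.0993. Macrophages then had 1 other receptor higher, 5 ligands higher and 2 lower, and 17 signalling genes higher and 1 lower, against 19.8% of all genes called.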

How the data were processed

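RNA of sorted pools was measured on 17 arrays. Per the submitters' processing notes, the authors used Affymetrix Expression Console and RMA, and the deposited log2 values were used as they stand; their versions and the array build are not stated there. RMA normalizes between arrays, so levels are relative and are not compared between probe sets. Precision is limited by how many arrays there are. Of 45037 probe sets, 28898 had 1 symbol, 551 several and 15588 none in the platform annotation.

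With limma 3.58.1 in R 4.3.3, 1 linear model with a mean per group was fitted to all 17 arrays and moderated with eBayes. Each of 6 comparisons, and the difference between the VENUS and knockout comparisons, was tested two-sided with Benjamini-Hochberg adjustment over all probe sets, and called at adjusted p under 0.05. The code was tested on simulated data. Intervals are 95% and unadjusted. Folds are given only where both group means reach 4.38, the median of all values. A gene's leading probe set has the highest mean over the arrays.

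The genes, gene lists and comparisons were chosen with earlier results of these data known. Named were every receptor probe set, up to 4 called genes with the largest difference per chemokine list and comparison, and the 3 genes nearest in profile to each receptor whose group means span 2 or more. Plcb2, Gnai2, Vav1, Prex1, Rac2, Elmo1 and Ccrl2 in the MDP comparisons, the markers of other cells and the chromosome 9 run were added after their values were seen. P-values rest on the spread between pools within groups, estimated over all groups together and moderated, and not on the compared pools alone. Pool numbers were not treated as pairs, since same-numbered pools deviated together with correlations of only -0.075 to 0.115. The labels do not say whether such pools share mice, and with so few pools these correlations cannot decide it.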

Additional observations from a re-analysis of the deposited data

How the results depend on the processing

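Each comparison was repeated with only its own arrays, with the pool number as a replicate block, without dim probe sets, with a trended and robust prior, after median-centring, after a further quantile normalization, with 1 probe set per gene, and without each pool. Fitting only the compared arrays left 1 called receptor probe set of 4 in knockout-labelled minus wild-type MDPs and 3 of 5 in VENUS-negative minus VENUS-positive MDPs, while the calls over all probe sets went down too, to 46 of 259 and 536 of 1998. With the replicate block as well, these counts were 0 and 0, with 2 and 0 calls over all probe sets. In the difference between the comparisons the count was 4 of 7, with 536 of 1059 over all probe sets. The labels do not say whether pools of the same number are paired, and the cause of the lost calls was not tested. Leaving out each pool gave 3 to 6 calls for the knockout comparison (177 to 278 over all probe sets), 3 to 5 for the VENUS comparison (1535 to 1776 over all), 10 in each for macrophages minus granulocytes, 8 to 9 for granulocytes and 7 to 8 for macrophages minus wild-type MDPs, 0 for VENUS-positive minus wild-type MDPs, and 4 to 7 for the difference (827 to 1143 over all). The differences that changed sign were uncalled. Cxcr2 in the VENUS comparison was -0.02 after median-centring and -0.02 after quantile normalization, and Ccr1 1419610 in VENUS-positive minus wild-type MDPs was 0.01 after median-centring. Without each pool, the knockout comparison gave -0.36 to 0.24 for Cxcr2, -0.41 to 0.10 for Cx3cr1 1450019 and -0.15 to 0.66 for 1450020. The VENUS comparison gave -0.02 to 0.13 for Ccr1 1419609, -0.01 to 0.12 for Ccr3 and -0.24 to 0.29 for Cxcr2. VENUS-positive minus wild-type MDPs gave -0.97 to 0.14 and -0.27 to 0.43 for Ccr1, and -0.52 to 0.03, -0.36 to 0.14 and -0.64 to 0.34 for Ccr2 1421186, 1421187 and 1460067. The difference between the comparisons gave -0.22 to 0.41 for Cxcr2. Many of the low levels lie near background, where the arrays limit what can be told apart.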
